A study of Drosophila melanogaster x Drosophila sechellia and Drosophila melanogaster and Drosophila sechellia with 12 samples.

Results

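RNA editing of the Drosophila sechellia allele was compared between hybrids mutant for the D. melanogaster copy of Adar (called Adar F1 here, 3 libraries) and F1 hybrids for which no mutation is named (called F1, 3 libraries). Both groups are D. melanogaster x D. sechellia hybrids, so both hold 1 set of alleles of each species, and only reads assigned to the D. sechellia sequence were used. The sites were those with at least 50 D. sechellia reads in all 6 libraries, which gave 450 of the 1058 listed sites, in 147 of 309 clusters of sites lying within 1000 bases of the next. A site's level is given as G reads in percent of the A and G reads of the D. sechellia allele. The rule on coverage did not use the levels. At the 16 sites whose lowest coverage was 50 to 54 reads the mean level was 19.98% in Adar F1 and 19.89% in F1, and at the 15 sites just outside, at 45 to 49 reads, it was 14.8% in Adar F1 and 17.3% in F1.

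RNA came from heads of female adults 0 to 2 days old, and 493 loci were amplified by multiplex PCR and sequenced (mmPCR-seq). The labels name neither the Adar allele, the stock that carried it, the direction of the cross nor the number of heads in a library, and no mutation is named for the D. sechellia parent. Libraries of D. melanogaster, D. sechellia and a mixture of both parents (2 each) exist in the series and are used here for levels outside the hybrid, for read assignment and, in 1 alternative, for the spread between libraries. The tables list editing sites and no gene levels, so the tissue label was not checked against marker genes, and sites are named by chromosome arm and position in the dm3 build because the tables give no gene names.

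Adar is the adenosine deaminase that acts on double-stranded RNA in flies. It converts adenosine to inosine, which is copied as G, and it does so where an exon pairs with a nearby complementary stretch, so that several sites of 1 transcript are often edited together. In Drosophila its gene lies on the X chromosome, and many of its known targets are transcripts of the nervous system, among them ion channels and proteins of transmitter release.

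The Adar F1 libraries held 325130 to 398284 reads and the F1 libraries 281768 to 325139. At the 450 sites the median D. sechellia coverage was 207, 254.5 and 195.5 reads in Adar F1 and 145.5, 155 and 144.5 reads in F1. The coverage profile of these sites correlated by at least 0.970 within Adar F1 and 0.936 within F1, but by only 0.430 to 0.475 across the groups, so a difference in amplification between the groups and the Adar genotype cannot be told apart. Adar F1 replicate 1 stood apart from the other two of its group. It had the highest level of the 3 at 204 of 355 tested sites, against 80 and 70 sites for replicates 2 and 3. Nothing in the labels says that the libraries of a group came from separate animals or cultures, so the p-values rest on differences among the libraries alone, and these may be technical. The labels give no batch.

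Editing of the D. sechellia allele was lower in Adar F1. The mean over the 450 sites was 16.8%, 15.3% and 15.1% in Adar F1, against 18.2%, 17.1% and 17.8% in F1. All 3 Adar F1 libraries lay below all 3 F1 libraries. The group means were 15.7% ± 0.925 in Adar F1 and 17.7% ± 0.578 in F1 (SD, n = 3 each), a difference of -1.97 points, with p = 0.1 in an exact two-sided permutation test, the smallest that 3 against 3 libraries allow. Whole heads were used, so a lower level in each cell and fewer cells holding edited transcripts cannot be told apart. The share of all reads at these sites that carried the D. sechellia sequence was 51.2%, 52.0% and 51.7% in Adar F1 and 47.6%, 46.7% and 47.7% in F1 (exact two-sided permutation p = 0.1, and 0.1 for both tests after Benjamini-Hochberg adjustment).

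Each site's A and G reads entered a logistic regression with quasi-binomial spread, with Benjamini-Hochberg adjustment and a threshold of 0.05, over the 355 sites whose level averaged at least 1% in the 6 libraries. The other 95 sites lay below 1%, and 1 of them had no G read in 637 reads, which allows a level of up to 0.471%. Of these, 58 (16.3% of sites tested) in 33 clusters differed. Editing fell in Adar F1 at 48 sites (13.5%) in 29 clusters and rose at 10 sites (2.82%) in 5 clusters. Whether called or not, 240 of the 355 sites were lower in Adar F1 and 115 were higher, and the median site stood at 86.7% of its F1 level.

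**Figure D1:**
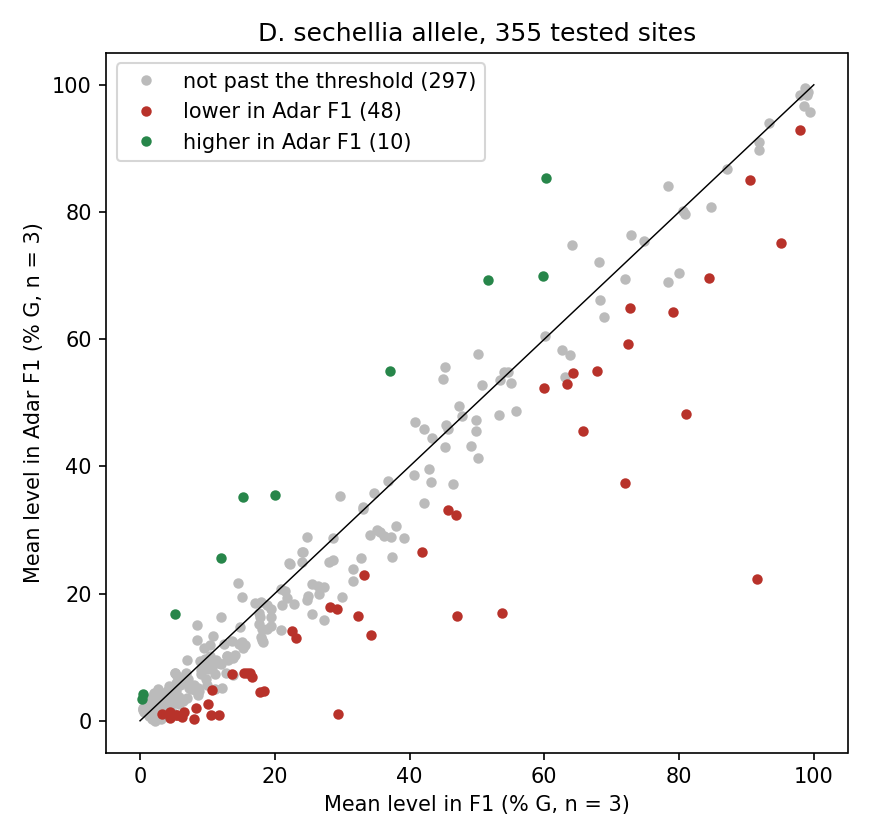
Mean editing level of the D. sechellia allele in Adar F1 (vertical, % G, n = 3) against F1 (horizontal, % G, n = 3) for the 355 tested sites, with the line of equal levels. The 48 falls lie below the line over the whole range of F1 levels, and 240 of all sites lie below it.

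The regression drew the spread of every site from a trend on coverage, because the fit estimated infinite prior degrees of freedom. Sites whose replicates lay far apart, such as 3L 9826469 and 3R 1062054, were thus given a smaller spread than their own (own dispersions of 23.3 and 15.5, against at most 3.93 on the trend). Limma on arcsine-square-root levels, which keeps part of each site's own spread, called 52 sites, of which 46 were among the 58. Its adjusted p-values are printed below beside the named falls and rises. With each site's own spread alone, the quasi-binomial test called 1 site, while 50 of the 58 had an unadjusted p under 0.05. That 1 site was 3R 14733513, where the level may not measure editing, as described below. The 3 Adar F1 libraries did not overlap the 3 F1 libraries at 55 of the 58 sites, where 115 of all 355 sites (32.4%) did not overlap. The 3 calls with overlapping libraries were 2L 18182220, 2R 4771211 and 3R 26872322.

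By level, falls were called at sites from low to high G levels. At F1 levels under 5%, 3 of 125 sites fell and 2 rose, and the median site stood at 90.9% of its F1 level. From 5 to 20%, 17 of 103 fell and 3 rose, and 81 of the 103 were lower in Adar F1, with a median of 76.4% of the F1 level. From 20 to 50% there were 12 falls and 2 rises among 72 sites (median 85.7% of F1). Between 50 and 80% there were 10 falls and 3 rises among 36 sites (median 92.7%). Above 80%, 6 of 19 sites fell, none rose, and 16 were lower, with a median of 98.1%. These classes were not tested against each other.

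The 48 falls ranged from -2.17 to -69.3 points with a median of -10.2 points, and the median falling site kept 50.2% of its F1 level. Of the 48, 24 kept under 50% of the F1 level, 5 of them under 10%, and 11 kept 75% or more. Among the 5 that kept under 10% was 3L 4369445, where the level was 0%, 0.926% and 0% in Adar F1, against 10.7%, 6.06% and 7.34% in F1 (adjusted p = 9.66e-05, limma adjusted p = 0.000616). Another was 3L 9860543, where it was 1.78%, 0.926% and 0% in Adar F1, against 8.96%, 15.1% and 10.9% in F1 (limma adjusted p = 0.000616). Other weakly edited sites that fell kept more, such as 3L 9826420, at 1.06% in Adar F1 and 3.23% in F1. These sites were chosen after their values were seen. In single libraries the counts of 0 allow levels of up to 2.75% and 3.66% at 3L 4369445 and 1.92% at 3L 9860543. Such limits cover counting error only, since PCR reads without molecular identifiers are not independent molecules. The 95% intervals of differences given below also hold the fitted spread between libraries.

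**Figure D2:**
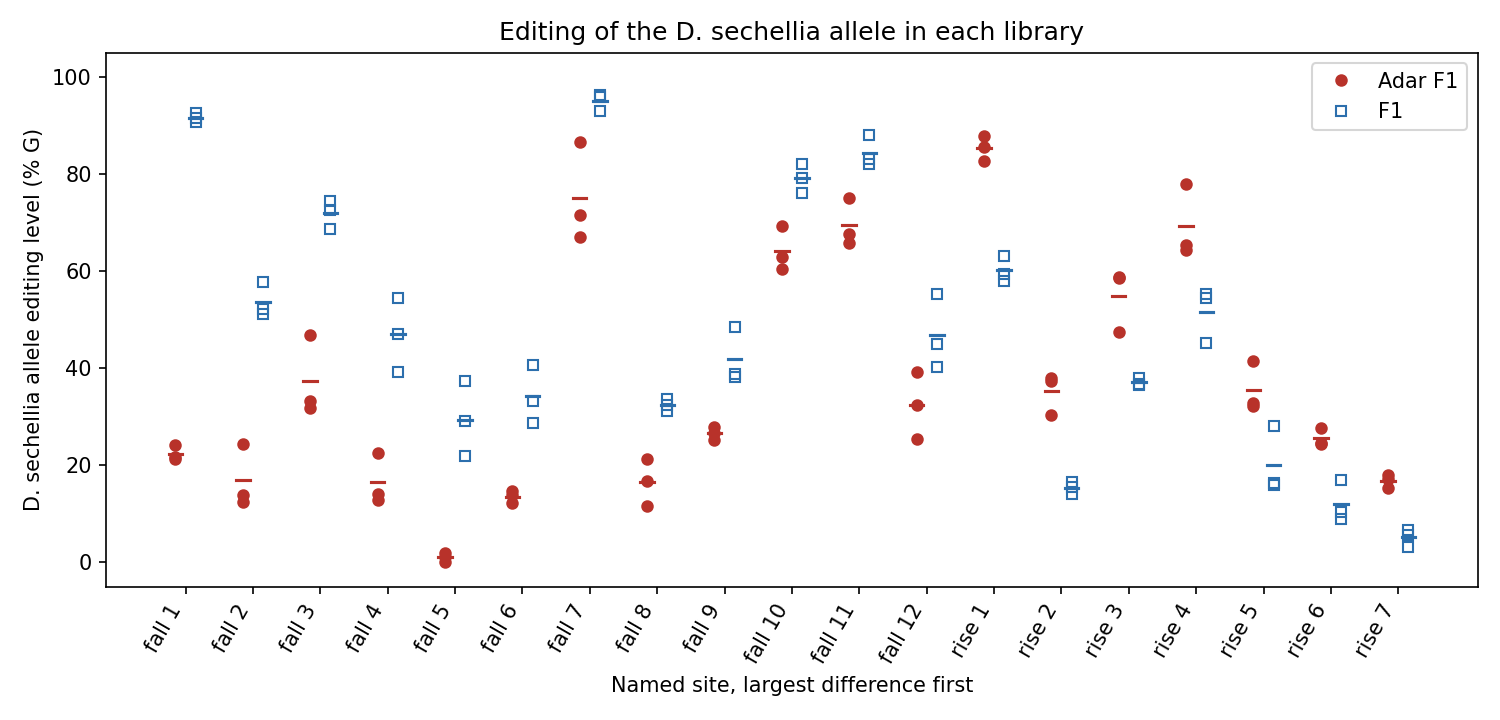
Editing level of the D. sechellia allele (% G) in every library at the 12 largest falls and 7 largest rises among called sites whose groups do not overlap, at most 2 per cluster, each ordered from the largest difference. Filled circles are the 3 Adar F1 libraries, open squares the 3 F1 libraries, and bars the group means. The first fall is the widest gap, with Adar F1 at 21.3 to 24.1% and F1 at 90.7 to 92.5%.

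The largest fall was at 3R 14733513, with 21.7%, 24.1% and 21.3% in Adar F1 and 92.5%, 90.7% and 91.7% in F1, a difference of -69.3 points (limma adjusted p = 1.39e-09). All 3 Adar F1 libraries lay far below the F1 libraries, and both D. sechellia fly libraries stood at 97.2%, with mixed parents at 93.0% and 91.1%. At this site the D. sechellia sequence took 99.9% of the reads in Adar F1 and 39.7% in F1, so almost no read was assigned to D. melanogaster in Adar F1. The D. melanogaster allele of F1 stood at 3.87%. A G in the D. sechellia genome and a fully edited A cannot be told apart in RNA reads, and no DNA was used here, so at such a site the level and its fall may not measure editing. Of 12 tested sites that averaged at least 95% G in D. sechellia flies or in F1, 3 were called, the others being 3R 1062054 and 2R 8336322, and 45 falls and 10 rises were called without the 12. Which allele the Adar F1 reads came from cannot be read from the counts, and the part of this shift in read share in the result was not tested. The sites 3R 14733520, 14733521 and 14733531, which have the same shift in share, did not pass, with levels of 4.17%, 35.3% and 99.4% in Adar F1 and 2.61%, 29.6% and 98.7% in F1.

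The next falls lay in a cluster on 3L. At 3L 9826400 the level was 24.4%, 13.8% and 12.5% in Adar F1, against 57.7%, 52.3% and 51.3% in F1, a difference of -36.8 points (limma adjusted p = 5.04e-05). The neighbouring base, 3L 9826401, stood at 46.9%, 31.8% and 33.3% in Adar F1, against 74.4%, 68.7% and 72.6% in F1 (limma adjusted p = 0.000116). At both sites all Adar F1 libraries were below all F1 libraries, replicate 1 was the highest of the Adar F1 libraries, and the share of D. sechellia reads was alike in both groups (66.6% in Adar F1 and 67.8% in F1 at 9826400).

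In this cluster, which spans 170 bases from 3L 9826390 to 9826559, all 13 tested sites were lower in Adar F1 and 10 of them fell. The sites differed widely in level and less in their shift on the log-odds scale. At 3L 9826469 the level was 48.3% ± 12.999 in Adar F1 and 81.1% ± 1.64 in F1 (SD, n = 3 each), a log-odds shift of -1.53 ± 0.13 (SE). The SEs of log-odds shifts, here and below, use the spread of the trend. They are too small at sites such as this one, whose replicates lay far apart. At the next base, 9826470, it was 4.72% ± 3.05 in Adar F1 and 18.5% ± 1.12 in F1, again with a shift of -1.53 ± 0.20. The site 9826394 stood at 4.54% ± 2.03 in Adar F1 and 17.9% ± 0.970 in F1, a shift of -1.54 ± 0.20. The shift was largest at 9826406, at -2.37 ± 0.54, where the level was 0.456% in Adar F1 and 4.48% in F1, and smallest at the last position, 9826559, at -0.31 ± 0.14, where the level was 29.1% in Adar F1 and 36.3% in F1 and did not pass. Neighbouring sites are read on the same PCR products, so they are not independent of each other, and limma did not call 9826420 and 9826466 (adjusted p = 0.114 and 0.101).

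**Figure D3:**
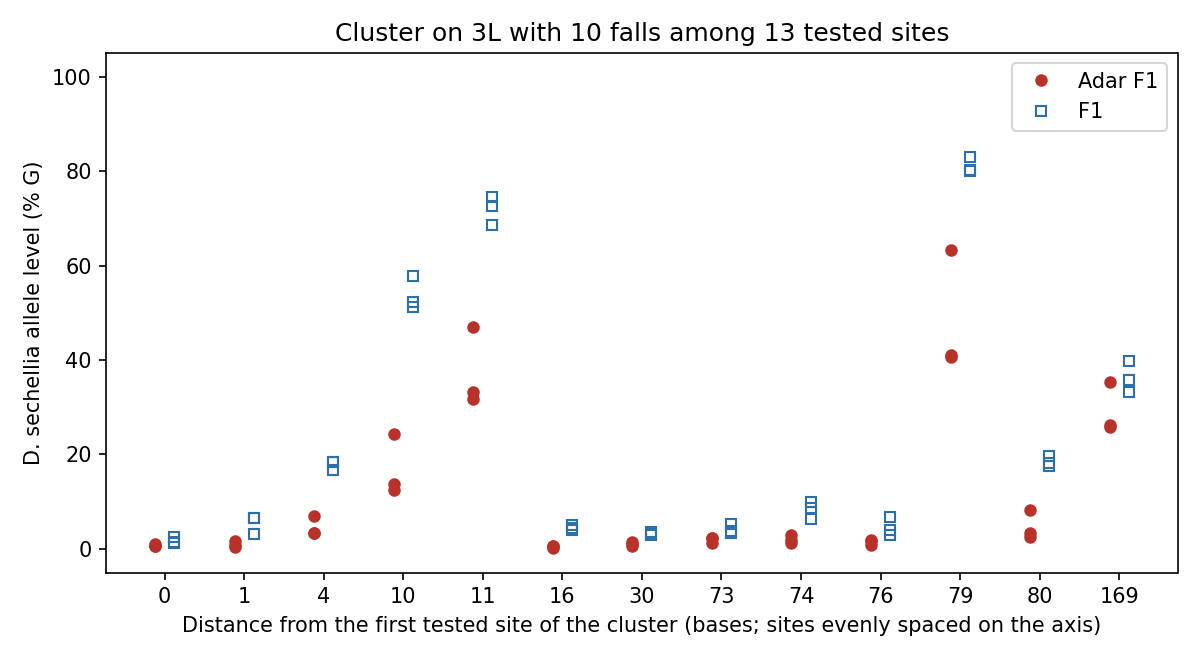
Editing level of the D. sechellia allele (% G) at the 13 tested sites of the cluster on 3L in each Adar F1 library (filled circles) and F1 library (open squares), by distance in bases from the first site. Every Adar F1 circle lies below every F1 square at the 10 sites that fell, among them the highly edited sites at distances 10, 11 and 79.

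On 3R, 2 sites 3 bases apart fell by different amounts in points. At 3R 1062051 the level was 22.6%, 14.0% and 12.9% in Adar F1, against 47.1%, 54.5% and 39.3% in F1 (limma adjusted p = 0.000331). At 3R 1062054 it was 86.7%, 71.6% and 67.2% in Adar F1, against 96.3%, 95.9% and 93.0% in F1 (limma adjusted p = 0.0022). The log-odds shifts were -1.46 ± 0.13 and -1.81 ± 0.23 (SE on the trend spread), in that order, and their difference was not tested. Both SEs are too small for the replicates seen, with own dispersions of 8.22 and 15.5 against 1.68 and 1.69 in the fit. The other tested site of this stretch, 3R 1062050, was at 1.18% in Adar F1 and 1.78% in F1 and did not pass.

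In another pair of adjacent bases, 1 site was almost lost and the other was not. At 3R 123239 the level was 0%, 1.87% and 1.12% in Adar F1, against 29.0%, 21.8% and 37.3% in F1 (limma adjusted p = 2.8e-05), so Adar F1 kept 3.39% of the F1 level. At 3R 123240 it was 13.8%, 12.1% and 14.6% in Adar F1, against 33.3%, 28.7% and 40.7% in F1 (limma adjusted p = 0.000616), and 39.5% of the F1 level was kept. Coverage here was 59 to 107 reads, and the 0 at 3R 123239 allows a level of up to 4.62%. All 6 tested sites of this 15-base stretch were lower in Adar F1, and 3R 123226 kept the most, at 34.3% in Adar F1 and 42.1% in F1.

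A like contrast was seen at 3R 14733397 and 14733398. The first stood at 52.3% in Adar F1 and 59.99% in F1, 87.1% of the F1 level, and the second at 0.936% in Adar F1 and 10.6% in F1, 8.84% of it. Both were called, although limma called only the second (adjusted p = 0.159 and 0.000616). Of 59 pairs of tested sites 1 base apart, both fell at 6, 1 of the pair fell at 9, and a rise was called at 3.

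A fall of -20.2 points at 2R 4771211 was larger than some of those described, but its groups overlapped, with 64.6%, 40.0% and 32.2% in Adar F1 and 75.7%, 57.7% and 64.0% in F1 (adjusted p = 0.00449, limma adjusted p = 0.0723). The remaining named falls were smaller. At 3R 6071146 the level was 21.2%, 16.7% and 11.7% in Adar F1, against 32.4%, 33.6% and 31.2% in F1 (limma adjusted p = 0.0046). At 2L 4986257 it was 26.7%, 28.0% and 25.1% in Adar F1, against 38.8%, 48.6% and 38.2% in F1 (limma adjusted p = 0.0095). Neither pair of groups overlapped, although the share of D. sechellia reads at 3R 6071146 was 22.0% in Adar F1 and 32.1% in F1. Highly edited sites were 3L 9662076, at 69.3%, 62.9% and 60.5% in Adar F1 and 76.2%, 79.2% and 82.0% in F1 (limma adjusted p = 0.00744), and 2R 18279015, at 67.7%, 75.1% and 65.9% in Adar F1 and 83.1%, 88.1% and 82.1% in F1 (limma adjusted p = 0.00706). The smallest named fall, 3L 9885234, had 25.4%, 39.2% and 32.4% in Adar F1 and 55.4%, 40.2% and 44.9% in F1, so that the groups were separated by about 1 point (adjusted p = 0.0297, limma adjusted p = 0.0454). The call was lost when Adar F1 replicate 1 or 3 or F1 replicate 1 or 3 was left out (adjusted p = 0.0592 to 0.319 in the quasi-binomial fit). It was also lost with no level minimum (adjusted p = 0.136), at a level minimum of 5% (0.053), with a replicate block (0.0527), with the dispersion of 10 libraries (0.0792) and with its own spread (0.369).

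In a cluster on 2R most sites were slightly lower. Between 2R 20802211 and 20802397, 18 of 19 tested sites were lower in Adar F1 and 5 fell, of which limma called 2 (20802352 and 20802397, adjusted p = 0.0382 and 0.0451), and the median site kept 83.5% of its F1 level. The largest of these was 2R 20802397, at 55.6%, 52.6% and 50.5% in Adar F1 and 60.5%, 64.8% and 64.6% in F1. It was followed by 20802388, at 54.7% ± 2.24 in Adar F1 and 64.3% ± 1.41 in F1 (SD, n = 3 each), which limma did not call (adjusted p = 0.0571). The share of D. sechellia reads at 20802397 was 50.6% in Adar F1 and 51.6% in F1. In the same cluster 2R 20802317 stood at 70.3%, 67.7% and 70.5% in Adar F1 and 70.9%, 71.5% and 73.6% in F1, a difference of -2.47 points with a 95% interval of -7.63 to 2.70, and did not pass. Over all clusters with at least 3 tested sites, 15 of 47 had every site lower in Adar F1 and 4 had none lower.

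The well edited sites named next did not pass and were chosen for narrow intervals, not for a small change. In Adar F1, 3L 6943212 stood at 86.1% of its F1 level, 2L 3762337 at 109.6% and 3L 12204856 at 78.5%. The median tested site stood at 86.7%. At 3L 6943212 the level was 18.2%, 15.9% and 20.4% in Adar F1, against 23.0%, 22.5% and 17.8% in F1, a difference of -2.94 points with an interval of -7.59 to 1.71. At 2L 3762337 it was 30.3%, 23.9% and 25.3% in Adar F1, against 24.3%, 24.2% and 24.1% in F1 (2.33 points, -2.58 to 7.24). Only 3L 12204856 of the narrowest intervals did not include 0, with 20.1%, 17.5% and 21.1% in Adar F1 and 23.6%, 23.4% and 27.8% in F1 (-5.36 points, adjusted p = 0.122 in the quasi-binomial fit and 0.243 by limma). Of the 297 sites that did not pass, 230 had an interval inside 10 points either side of 0. This count does not show that editing was kept. At the 125 tested sites with F1 levels under 5%, called or not, even a full loss is a fall of under 5 points. An interval inside 10 points does not by itself exclude such a loss. The intervals also use the spread of the trend, so they are too narrow at sites whose replicates lay far apart. The median half-width of the interval over tested sites was 4.07 points, and by level it ran from 2.14 points at F1 levels under 5% to 7.25 points at 20 to 50%. The intervals are not adjusted for the number of sites, so a half-width is no limit of detection, and larger differences can also have been missed.

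Sites on the X chromosome were rarely called. Of 57 tested X sites, 2 fell and none rose (3.51%), against 46 falls and 10 rises among 298 sites elsewhere (18.8%), and the median X site stood at 95.3% of its F1 level, against 85.5% elsewhere. The 2 falls were X 13608078, with 3.35%, 2.18% and 2.35% in Adar F1 and 12.3%, 8.94% and 9.15% in F1 (limma adjusted p = 0.00549), and X 9171041, with 9.84%, 6.52% and 6.41% in Adar F1 and 18.0%, 12.9% and 15.2% in F1 (limma adjusted p = 0.0285). Among sites tested on both alleles, 1 of 39 X sites was called on the D. sechellia allele and 3 on the D. melanogaster allele, against 46 and 48 of 232 sites elsewhere. Over all sites tested on the D. melanogaster allele, which include sites not tested on the D. sechellia allele, 30 of 111 X sites fell and 2 rose (28.8%), against 71 falls and 18 rises among 392 sites elsewhere (22.7%). The difference between X and the rest was not tested on either allele.

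The rises divided by read share. At 6 of the 10, and at 2 of the 48 falls, the share of reads assigned to D. sechellia moved by over 30 points between Adar F1 and F1, as it did at 42 of the 355 tested sites. A cluster on 3R from 23500441 to 23500629 held 5 of the 10 rises among its 12 tested sites. In its first part, from 23500441 to 23500461, all reads were assigned to D. sechellia in Adar F1, against 38.5% in F1, and 4 sites rose there. At 3R 23500458 the level was 87.9%, 82.8% and 85.6% in Adar F1, against 63.1%, 58.0% and 59.5% in F1 (limma adjusted p = 0.000105). At 3R 23500441 it was 27.7%, 24.4% and 24.6% in Adar F1, against 16.9%, 9.0% and 10.3% in F1 (limma adjusted p = 0.00672). The D. melanogaster libraries, which hold no D. sechellia allele, had 6.99% of their reads assigned to D. sechellia at both sites, against a median of 0.181% over the 450 sites.

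At 2R 11759340 the share moved the other way, to 7.73% in Adar F1, against 52.7% in F1. The D. sechellia level there was 38.0%, 30.4% and 37.3% in Adar F1, against 16.5%, 14.1% and 15.4% in F1 (limma adjusted p = 0.000616), and the D. melanogaster level was 56.1% in Adar F1 and 12.99% in F1. At 2L 6636748 the share was 47.1% in Adar F1 and 77.4% in F1, and the level was 15.2%, 18.0% and 17.1% in Adar F1, against 5.63%, 3.23% and 6.72% in F1 (limma adjusted p = 0.00182). The part of read assignment in these rises was not tested. With all sites of shifted share left out, 46 of 313 sites were called, 42 lower and 4 higher, an alternative added after the data were seen.

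The other 4 rises had shares within 30 points. At 2R 8336191 the level was 47.5%, 58.6% and 58.9% in Adar F1, against 38.0%, 36.5% and 36.8% in F1 (limma adjusted p = 0.00592). At 2R 8336159 it was 32.8%, 41.4% and 32.2% in Adar F1, against 15.8%, 16.3% and 28.1% in F1 (limma adjusted p = 0.0163). At 2L 7230012 it was 78.0%, 64.4% and 65.4% in Adar F1, against 54.4%, 45.2% and 55.2% in F1 (limma adjusted p = 0.0142). All 3 sites were covered by 57 to 146 reads and their shares differed by 5.48 to 7.28 points. In the quasi-binomial fit without Adar F1 replicate 2, the calls at 2R 8336191 and 8336159 were lost (adjusted p = 0.0599 and 0.0603). The call at 8336159 was also lost without F1 replicate 1 (adjusted p = 0.056), and that at 2L 7230012 without F1 replicate 2 (adjusted p = 0.082). With reads thinned to equal coverage, none of the 3 passed (adjusted p = 0.0638 to 0.0857). The fourth, 3R 23500600, was at 74.4%, 66.8% and 68.3% in Adar F1 and 58.3%, 56.6% and 64.6% in F1, and limma did not call it (adjusted p = 0.0723). It lies in the cluster on 3R described above, outside the part with the shifted share, and its share changed by -3.90 points.

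The cluster that holds 2R 8336191 also held a fall. At 2R 8336322 the level was 94.1%, 91.2% and 93.5% in Adar F1, against 99.2%, 97.8% and 96.9% in F1 (limma adjusted p = 0.0256), with a share of D. sechellia reads of 94.3% in Adar F1 and 56.5% in F1. The other 8 tested sites of the cluster, whose shares were 29.9 to 37.7 points higher in Adar F1, did not pass. Low coverage went with the rises: 9 of 10 lay among the 135 tested sites whose lowest coverage was under 100 reads, and 1 among the 220 with more, where 38 of the 48 falls lay.

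**Figure D4:**
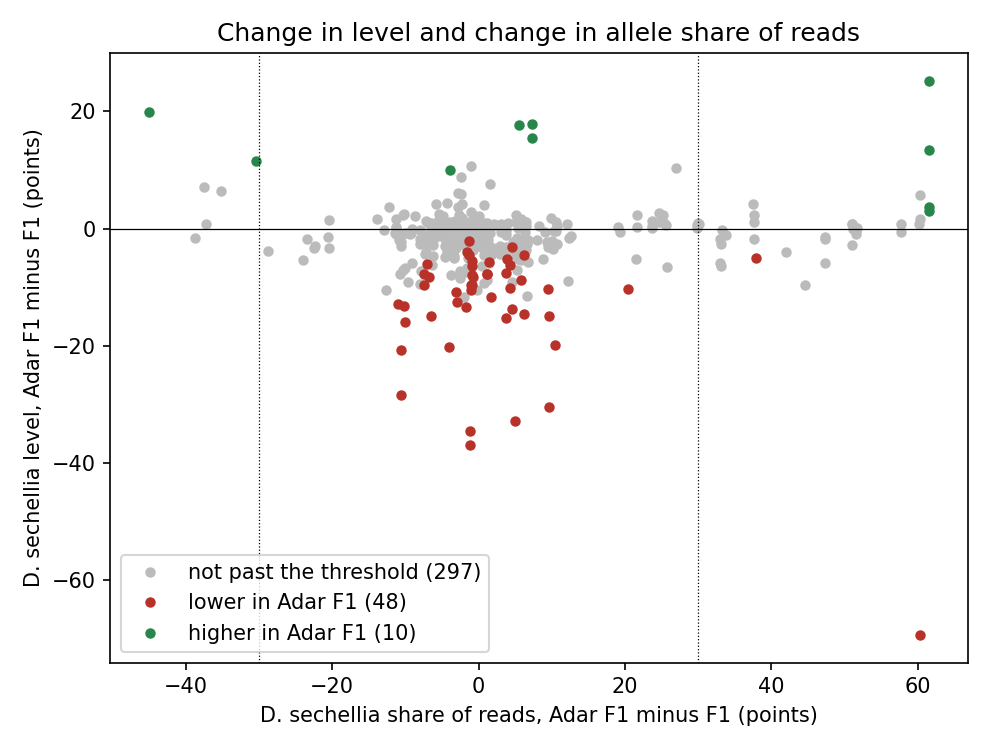
Change in the editing level of the D. sechellia allele (vertical, points, Adar F1 minus F1) against the change in the share of reads assigned to D. sechellia (horizontal, points) for the 355 tested sites. Dotted lines mark 30 points either side. Of the 10 rises, 6 lie outside the lines, and of the 48 falls, 2 do.

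The D. sechellia allele could also be set beside its level in D. sechellia flies and mixed parents, 4 libraries that the choice of sites did not use. The falls and rises were, however, chosen on the same Adar F1 libraries. That choice alone raises the counts below, so they are no separate support for the calls. All 48 falls were covered by at least 50 reads in these 4 libraries, and at 41 of them the 3 Adar F1 libraries lay below all 4. Over all tested sites with that coverage this was so at 97 of 347. At 3L 9826400, for example, Adar F1 stood at 16.9%, against 53.8% in F1 and 50.2% in both D. sechellia flies and mixed parents. At 3R 1062051 D. sechellia flies stood at 49.8% and mixed parents at 43.9%, against 16.5% in Adar F1. Of 6 rises with coverage there, 4 had the 3 Adar F1 libraries above all 4, against 17 of 347 sites overall. At 2L 7230012 D. sechellia flies stood at 63.2% and mixed parents at 59.9%, between Adar F1 at 69.3% and F1 at 51.6%.

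The D. melanogaster allele of the same libraries gave the closest comparison. In Adar F1 this allele came from the mutant parent, whose sequence may differ from that of the F1 parent. On this allele such a difference and the Adar genotype cannot be told apart. On the D. melanogaster allele 121 of 503 tested sites (24.1%) were called. Of the 48 falls of the D. sechellia allele, 44 were covered on both alleles, the D. melanogaster allele was lower in Adar F1 at all 44, and its own fall was called at 26. Over all 292 tested sites covered on both alleles, called or not, the D. melanogaster allele was lower at 211. The median difference at the 44 was -10.3 points on the D. sechellia allele and -6.66 points on the D. melanogaster allele. These sites were chosen on the D. sechellia allele, which makes its median too large, and both alleles share the libraries. At 3L 9826400 the D. melanogaster level was 12.7% in Adar F1 and 42.3% in F1, and at 3R 123239 it was 2.01% in Adar F1 and 16.7% in F1.

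**Figure D5:**
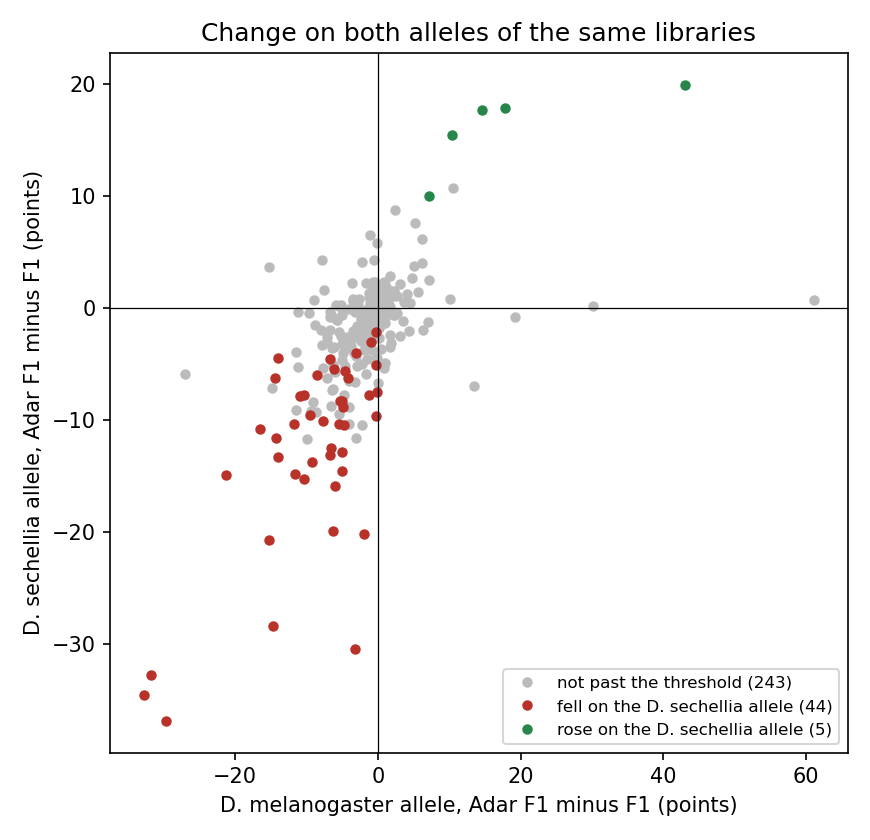
Difference between Adar F1 and F1 on the D. sechellia allele (vertical, points) against that on the D. melanogaster allele of the same libraries (horizontal, points) for the 292 tested sites covered on both alleles. All 44 falls of the D. sechellia allele lie left of 0, as do 211 of the 292 sites, and all 5 rises lie right of it.

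A test of the difference between alleles, with the library as a block, called 3 of 316 sites (0.949%), each with the D. sechellia minus D. melanogaster gap lower in Adar F1. Only 1 of them fell on the D. sechellia allele: at 3R 1062051 that allele stood at 16.5% ± 5.32 in Adar F1 and 47.0% ± 7.64 in F1 (SD, n = 3 each), while the D. melanogaster allele had 21.7% ± 1.34 in Adar F1 and 24.9% ± 2.75 in F1. The gap changed by -27.3 points there (quasi-binomial interaction test, adjusted p = 0.00732). At 3L 4590708 the D. sechellia allele differed by 0.21 points, with 35.8%, 32.3% and 31.6% in Adar F1 and 33.5%, 31.8% and 33.8% in F1 and an interval of -5.73 to 6.16. The D. melanogaster allele had 57.1% in Adar F1 and 26.9% in F1 (interaction, adjusted p = 0.00415). At 2L 3762371 the D. sechellia allele was at 48.8% ± 5.33 in Adar F1 and 55.8% ± 3.87 in F1, and the D. melanogaster allele at 50.01% in Adar F1 and 36.6% in F1 (interaction, adjusted p = 0.00732). All 3 calls were lost without Adar F1 replicate 2, F1 replicate 1 or F1 replicate 3, when 0 sites passed and 18 to 20 had an unadjusted p under 0.05 in the quasi-binomial test. A gap change of 94.98 points at 2R 6708460 did not pass (interaction, adjusted p = 0.174). There the D. melanogaster allele had 0.959% in Adar F1 and 95.5% in F1, and the D. sechellia allele 0.402% and 0%. The test works on log-odds and decides little where 1 allele is near 0%. Sites that did not pass are thus not shown to change alike on both alleles.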

How the data were processed

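The deposited tables give, per library and listed site, whole-number read counts of A and G for each species' allele and an editing percentage. Per the labels, RNA was amplified at 493 loci by multiplex PCR (mmPCR-seq) and sequenced. BWA and dm3 are named in the submitters' processing notes, with no version. How reads were assigned to an allele is not given in the sources used here. The deposited percent values differed from those recomputed from the authors' counts at 0 sites, with a tolerance of 0.05 points, and levels were recomputed from the counts.

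Sites with at least 50 D. sechellia reads in all 6 libraries and a mean level of at least 1% were tested in R 4.3.3 by quasi-binomial logistic regression, with dispersions squeezed across sites on a coverage trend (limma 3.58.1, floor 1), a deviance F test and Benjamini-Hochberg adjustment over all sites tested. Limma on arcsine-square-root levels was an alternative, and its adjusted p is given where named. The difference between alleles was an allele by genotype interaction with the library as a block. Library means were set against each other in exact permutation tests, two-sided. Intervals are 95% intervals of the difference in points. Scripts were tested on simulated data.

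Named sites were the 12 largest falls and up to 10 largest rises that passed with the groups' libraries apart (no more than 2 in a cluster), the sites passing the interaction test, and the 4 sites at 20 to 80% in F1 that did not pass and had the narrowest intervals, at most 1 per cluster. The sites and lists were chosen with earlier results of these data known. Gene lists and sequence context were not used here, since no annotation was at hand.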

Additional observations from a re-analysis of the deposited data

Results flagged for a closer look

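At 3 sites the change in Adar F1 differed between the alleles of the same libraries, by the interaction test. The gap between the D. sechellia and the D. melanogaster level, in Adar F1 minus F1, changed by -29.99 points at 3L 4590708, by -27.3 points at 3R 1062051 and by -20.4 points at 2L 3762371. The D. sechellia allele itself passed its own test only at 3R 1062051. The D. melanogaster allele of Adar F1 came from the mutant parent, so its sequence and the Adar genotype cannot be told apart in these gaps.

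Reads assigned to D. sechellia also appeared in the 2 D. melanogaster libraries, which the comparisons do not use and which hold no such allele. They made up 0.332% of all reads at the 450 sites. The share was over 5% at 5 of the 449 sites covered there, 3 of which were called: 3R 23500441, 3R 23500444 and 3R 23500458.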

How the results depend on the processing

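The mean level per library stayed lower in Adar F1 under every alternative run, by -1.63 to -2.63 points. The 58 calls depended most on the spread. With the spread of each site alone, added after the data were seen, 1 site passed (1 lower and 0 higher, with 51 and 9 at an unadjusted p under 0.05) and 0 passed the interaction (11 unadjusted). Pooling reads for Fisher's exact test, with no replicate spread, called 96 sites, 82 lower. Rises numbered 1 at a coverage minimum of 100, 4 with thinned reads, 6 with the dispersion of 10 libraries and 4 without sites whose read share moved. The interaction called 8 sites at a coverage minimum of 100, 11 by limma and 0 with no level minimum (18 unadjusted). Leaving out 1 library at a time gave 41 to 82 calls (33 to 72 lower, 7 to 10 higher) and 0 to 7 interaction calls. The 72 and 7 came without Adar F1 replicate 1, when 55 of the 58 were among the 82, and 0 without Adar F1 replicate 2, F1 replicate 1 or F1 replicate 3. The replicate numbers did not pair the libraries: deviations of same-numbered libraries correlated by 0.02, 0.06 and -0.04. A replicate block gave 59 calls (48 lower, 11 higher) and 0 interaction calls (10 unadjusted). Of the values at named sites, 434 kept their side of the threshold, 54 lost it, 1 gained it and 0 changed sign. Depth limited the weakly covered sites: the median half-width was 5.50 points at a lowest coverage of 50 to 99 reads and 3.31 points above.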

Other observations

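By chromosome arm, falls numbered 15 of 66 tested sites on 3L, 14 of 90 on 2R, 12 of 92 on 3R, 4 of 46 on 2L and 1 of 4 on chromosome 4. On 3L no site rose, and 10 of the 15 falls lay in the 1 cluster of 170 bases described above, whose sites are not independent. On chromosome 4 all 4 sites were lower in Adar F1.

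Sites in loci with 1 or 2 listed sites were lower in Adar F1 at 56 of 68, against 79 of 133 in loci with 8 or more. The median site kept 79.4% of its F1 level in the small loci and 94.9% in the large ones. Calls were 9 falls and 1 rise among the 68, and 22 falls and 8 rises among the 133. These classes were not tested against each other, and sites of 1 locus share their reads.

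At 27 of the 450 sites, in 8 clusters, at least 95% of the Adar F1 reads were assigned to D. sechellia, and at 0 sites was this so in F1. Of the 22 that were tested, 1 fell and 4 rose.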
